A study of Rattus norvegicus with 16 samples.

Results

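Collagens and laminins are the chains from which most of the fibres and sheets of the extracellular matrix are built, and the arrays carried 52 genes whose names follow the collagen or laminin pattern, 41 collagen and 11 laminin genes, out of 26115 names. The rule that chose them used gene names and no measured value, but it was set with earlier results of these data known. Each gene was read on its brightest probe among the 72 probes for these genes, of 30367 probes in all. Suckling Wistar rats (Wistar Han in the methods) were gavaged 2 times daily, beginning on day 14 and ending by day 21 of age, with saline (group C, NC in the sample labels) or with 250 nmol/kg body weight of obestatin, a peptide made from the ghrelin precursor (group OH, NOH in the labels). Stomach and middle part of the intestine were arrayed for 4 rats of each treatment, 16 arrays in 4 groups. The Cy5-labelled RNA of a piece of tissue was hybridised against 1 Cy3-labelled pool of RNA from all animals, with no dye swap. Per the methods each treatment was given to 4 litters of its own, so litter cannot be told apart from treatment. Which of the arrayed rats were littermates is not known here, nor whether equally numbered stomach and intestine arrays are of the same rat. Values below are log2 ratios of sample to pool, so 0 is the level of the pool and a difference of 1 is a doubling between groups. Pieces of tissue hold many cell types, and in such RNA fewer cells of a type and less RNA per cell cannot be told apart.

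A collagen chain is a long run of the triplet glycine, X, Y, and such chains wind around each other into a rope-like helix. Fibrillar collagens (types I, II, III, V, XI, XXIV and XXVII) pack into the fibres that give the stomach and gut wall its tensile strength. Type IV collagen and the laminins, cross-shaped molecules of an alpha, a beta and a gamma chain, form the basement membrane under epithelium and around muscle, vessel and nerve cells. The remaining types decorate fibrils, build beaded filaments (type VI), anchor the epithelium to the tissue below (types VII and XVII) or sit at the outer face of basement membranes (types XV and XVIII). In the stomach of the rat the squamous forestomach lies beside the glandular part, and both rest on such a membrane, whereas the intestine has a single glandular epithelium.

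The probes decide which part of each transcript was read, so the sequences of those on which the results turn are shown first, as deposited with rn4 positions. In the second probes of Col4a1 (chr16:83146135-83146194, plus strand) and Col4a6 (chrX:37482127-37482186, plus strand) capitals mark the 6 glycine codons, which recur with the period of the collagen triplet.
Col4a1 second probe: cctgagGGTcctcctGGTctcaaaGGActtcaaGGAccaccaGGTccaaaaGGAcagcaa
Col4a6 second probe: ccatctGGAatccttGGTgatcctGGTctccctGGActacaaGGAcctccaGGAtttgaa
Of the 58 collagen probes these 2 were the only ones to hold that repeat along their whole length, and no laminin probe held it. The probes of Col7a1 (chr8:114002585-114002644, plus strand) and Col18a1 (chr20:11981417-11981476, plus strand) lie outside the repeat, and their capitals mark 2 cysteine codons each.
Col7a1 probe: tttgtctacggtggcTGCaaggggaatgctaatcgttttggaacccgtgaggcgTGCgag
Col18a1 probe: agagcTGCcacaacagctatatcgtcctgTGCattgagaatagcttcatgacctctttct
The Col18a1 probe falls in the part of the chain that is released as endostatin.
The Lamb3 probe (chr13:109187343-109189861, plus strand) covers 2519 bases of the genome with its 60 bases, so it crosses an intron and reads spliced RNA.
Lamb3 probe: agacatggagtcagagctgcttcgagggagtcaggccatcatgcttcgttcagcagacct
Col4a1 and Col4a2, whose products form the common type IV network together, lie head to head. In RefSeq their start sites on GRCr8 are separated by 76 bases, chr16:84885521-84885596, in which capitals mark the GGGCGG motif, read on the other strand.
Between Col4a2 and Col4a1: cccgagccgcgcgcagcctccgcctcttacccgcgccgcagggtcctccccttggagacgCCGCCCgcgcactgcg
Of the 41 members with a RefSeq promoter of 250 bases before and 50 after the start, GGGCGG was found on either strand in 22 (53.7%), in comparison to 33.1% of all 33469 promoters. CCAAT was found in 12 of 41 (29.3%) against 37.5% of all promoters, and TATAAA in 5 (12.2%) against 14.2%.

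Of the 52 genes, 40 (31 collagens and 9 laminins) were bright enough to be tested among 21174 probes, and 38 of these were well above background on all 16 arrays. The exceptions were Col11a1, above background on 2 of the 4 arrays of each intestine group, and Lama3, above it on 3 of 4 C middle intestine arrays. The 12 genes that were not tested, because in no group was the probe well above background on all 4 arrays, were the collagens Col4a3, Col4a4, Col6a6, Col8a2, Col9a3, Col10a1, Col13a1, Col23a1, Col24a1 and Col25a1 and the laminins Lama1 and Lamc3. In comparison to the pool most members were low. For 25 of the 40 (62.5%) the means of all 4 groups lay below the pool, whereas this held for 17.3% of all tested probes. The means of all 4 groups lay above the pool for Col9a1, Col11a2 and Col19a1 among others. The samples were always Cy5 and the pool always Cy3, so the side of the pool cannot be told apart from a dye effect.

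The tissue labels were borne out by 11 of 12 markers of the glandular stomach lining, which were higher in stomach, and by 11 of 13 enterocyte markers, which were lower there, among both C and OH rats. Each group was hybridised on a slide of its own and the C and OH slides were scanned on different days, so slide cannot be told apart from tissue and slide or day cannot be told apart from treatment. The unprocessed median of the pool itself was 188 to 195 on C arrays and 341 to 399 on OH arrays. Single arrays stood apart for these genes. C stomach replicate 2 gave the lowest value of its group for 29 of the 40 members (72.5%), among them 11 of 12 basement membrane genes, in comparison to 27.8% of all probes. OH stomach replicate 1 gave the highest value for 25 (62.5%; all probes 22.6%) and replicate 3 the lowest for 25 (all probes 22.0%). In the intestine replicate 4 was the highest for 30 members among C rats (75.0%; all probes 24.9%) and for 27 among OH rats (67.5%; all probes 21.5%). The median SD of a member was 0.86 in OH stomach, where C stomach had 0.44, and in the intestine it was 0.38 for C and 0.37 for OH, in comparison to 0.20 to 0.27 for all probes.

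**Figure D1:**
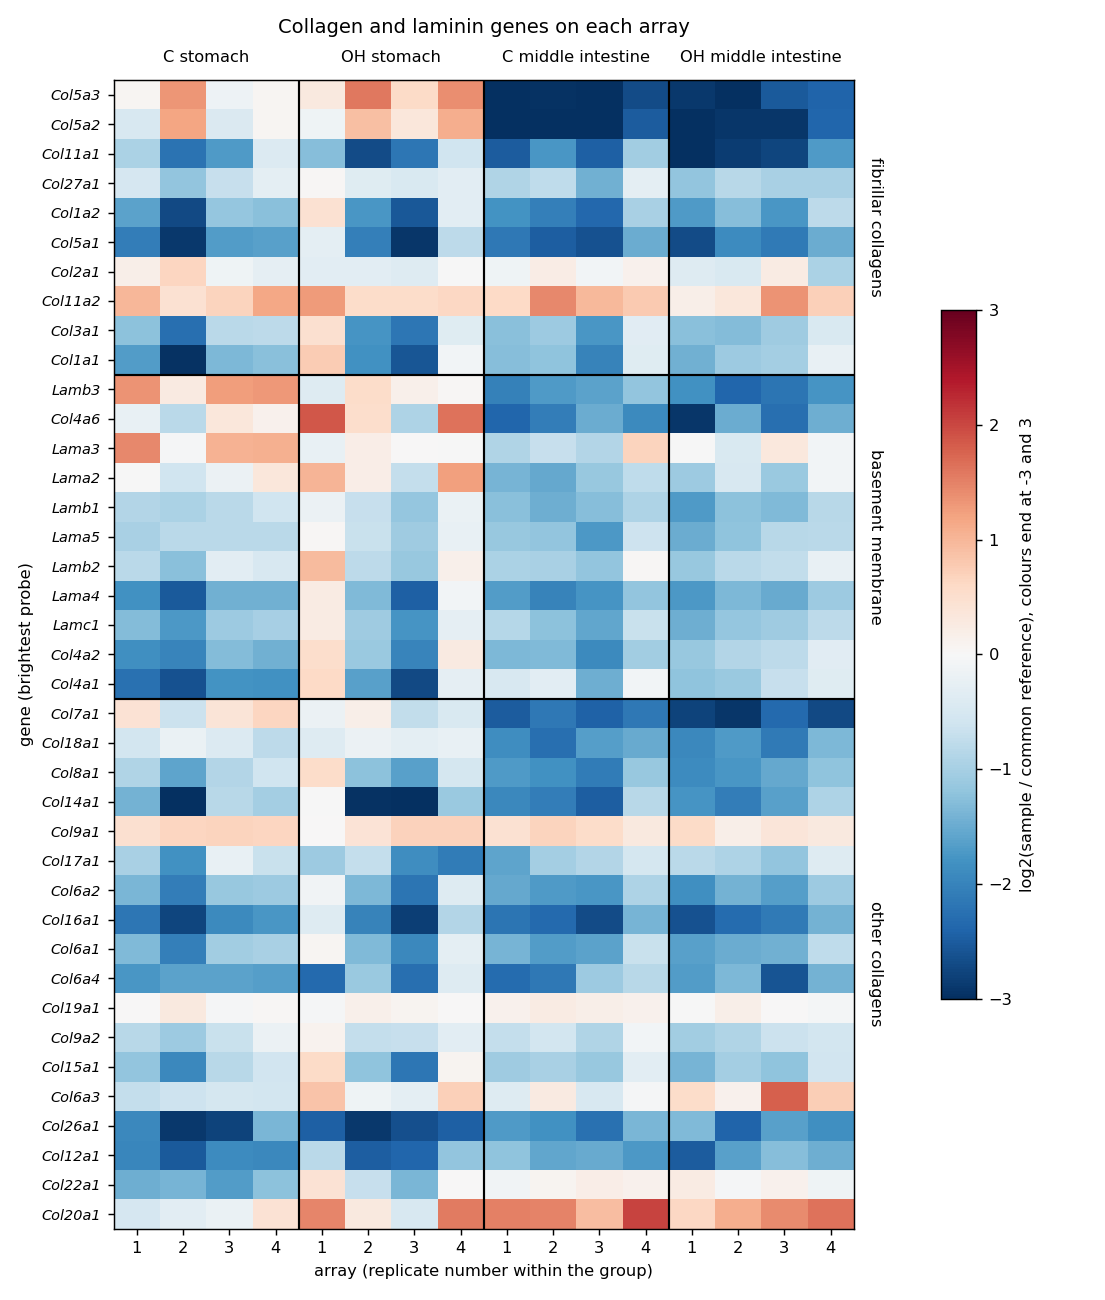
Log2 ratio of sample to pool (colour) for 39 of the 40 tested genes (rows, by class) on each of the 16 arrays (columns, by group). The blocks at the top of the fibrillar and other classes that are pale in stomach and dark in intestine belong to Col5a2, Col5a3 and Col7a1, and within OH stomach replicates 1 and 4 are paler or of the opposite colour to replicates 2 and 3 for many genes. For Col5a2 the second probe, not shown here, lacked the tissue difference.

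Marker genes of other cell types moved with the same arrays. The mean log2 ratio of 10 smooth muscle markers was 1.04, -1.35, -2.62 and 0.18 on OH stomach arrays 1 to 4 and -2.18, -2.61, -1.36 and -1.97 on C stomach arrays 1 to 4. The mean of 8 fibroblast markers was 0.58, -0.72, -1.14 and 0.39 on the OH stomach arrays and -0.66, -1.26, -0.55 and -0.26 on the C stomach arrays. In OH stomach both lists were high on replicates 1 and 4 and low on replicates 2 and 3, the order seen for many members. The 9 tested squamous forestomach markers averaged 1.04, 0.15, 1.66 and 1.29 on C stomach and 0.13, 1.04, 0.23 and 0.30 on OH stomach arrays, and -2.73 to -2.53 in C middle intestine. The 16 tested striated muscle markers averaged 2.97, -1.05, 2.58 and 3.29 on C stomach and 0.57, -0.30, -0.78 and 0.36 on OH stomach arrays, so C stomach replicate 2 was the low array of its group for both lists. The part of muscle, fibroblast and squamous tissue in the results below was not tested.

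**Figure D2:**
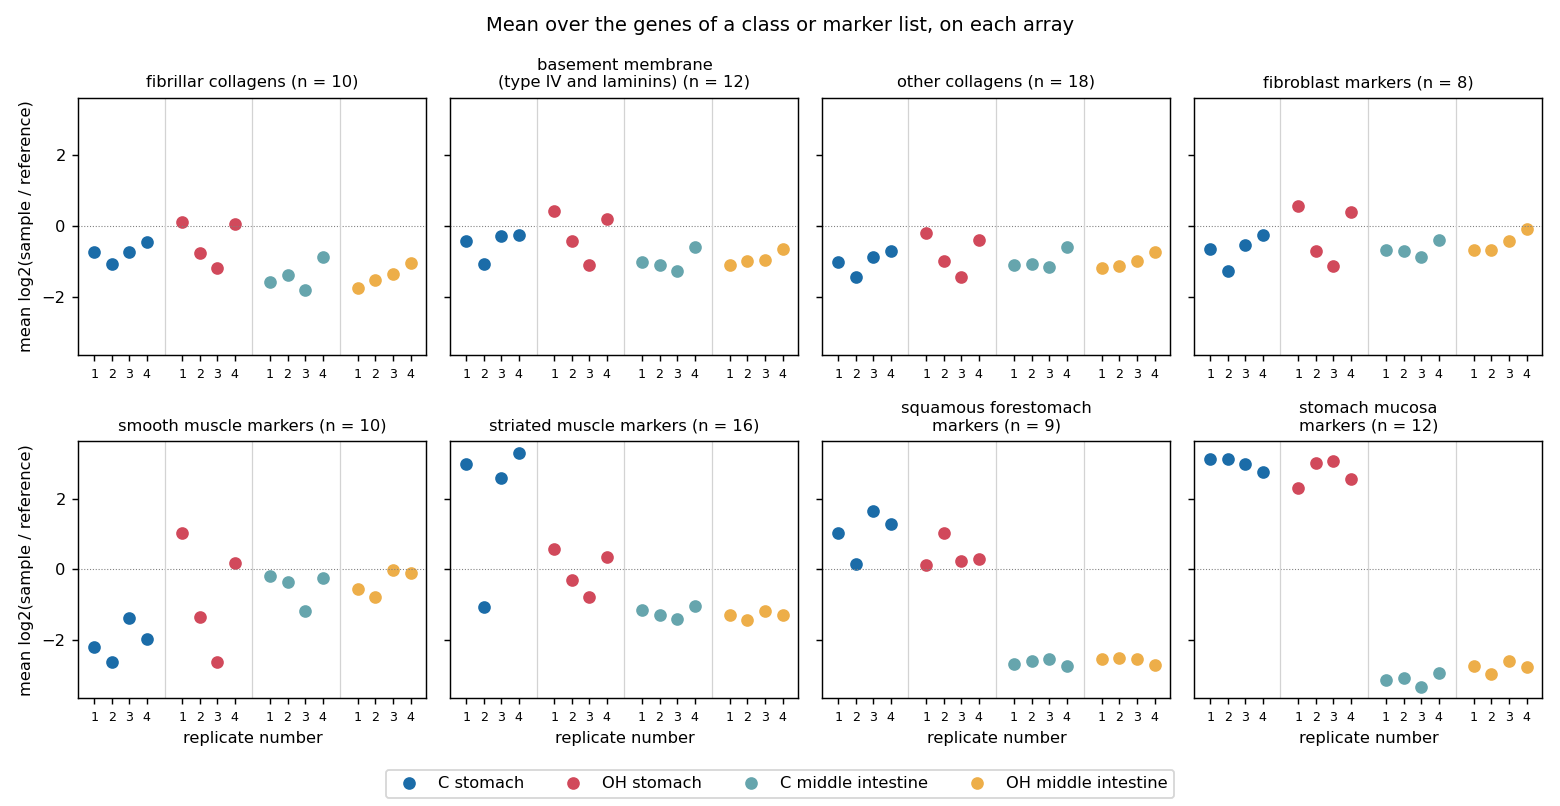
Mean log2 ratio of sample to pool over the tested genes of each member class (first 3 panels) and of the marker lists on every array (points, coloured by group and ordered by replicate). In OH stomach the mean of the basement membrane genes runs from 0.41 (replicate 1) to -1.10 (replicate 3), and the smooth muscle markers from 1.04 to -2.62 on the same arrays.

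Stomach was first compared with middle intestine within each treatment. Among C rats 11 of the 40 genes differed, 8 higher and 3 lower in stomach (limma, Benjamini-Hochberg adjusted p under 0.05), which is 27.5% of the members, where 44.9% of all probes tested differed (22.7% higher and 22.3% lower). Among OH rats, measured on a separate set of arrays, 9 of 40 differed and all 9 were higher in stomach, 22.5% of the members, where 38.2% of all probes did (19.2% higher and 19.1% lower). Their median difference was 0.06 among C rats (all probes -0.01) and 0.38 among OH rats (all probes 0.01). By class, the calls among C rats were 2 of 10 fibrillar, 5 of 12 basement membrane and 4 of 18 other genes, and among OH rats 3, 4 and 2.

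**Figure D3:**
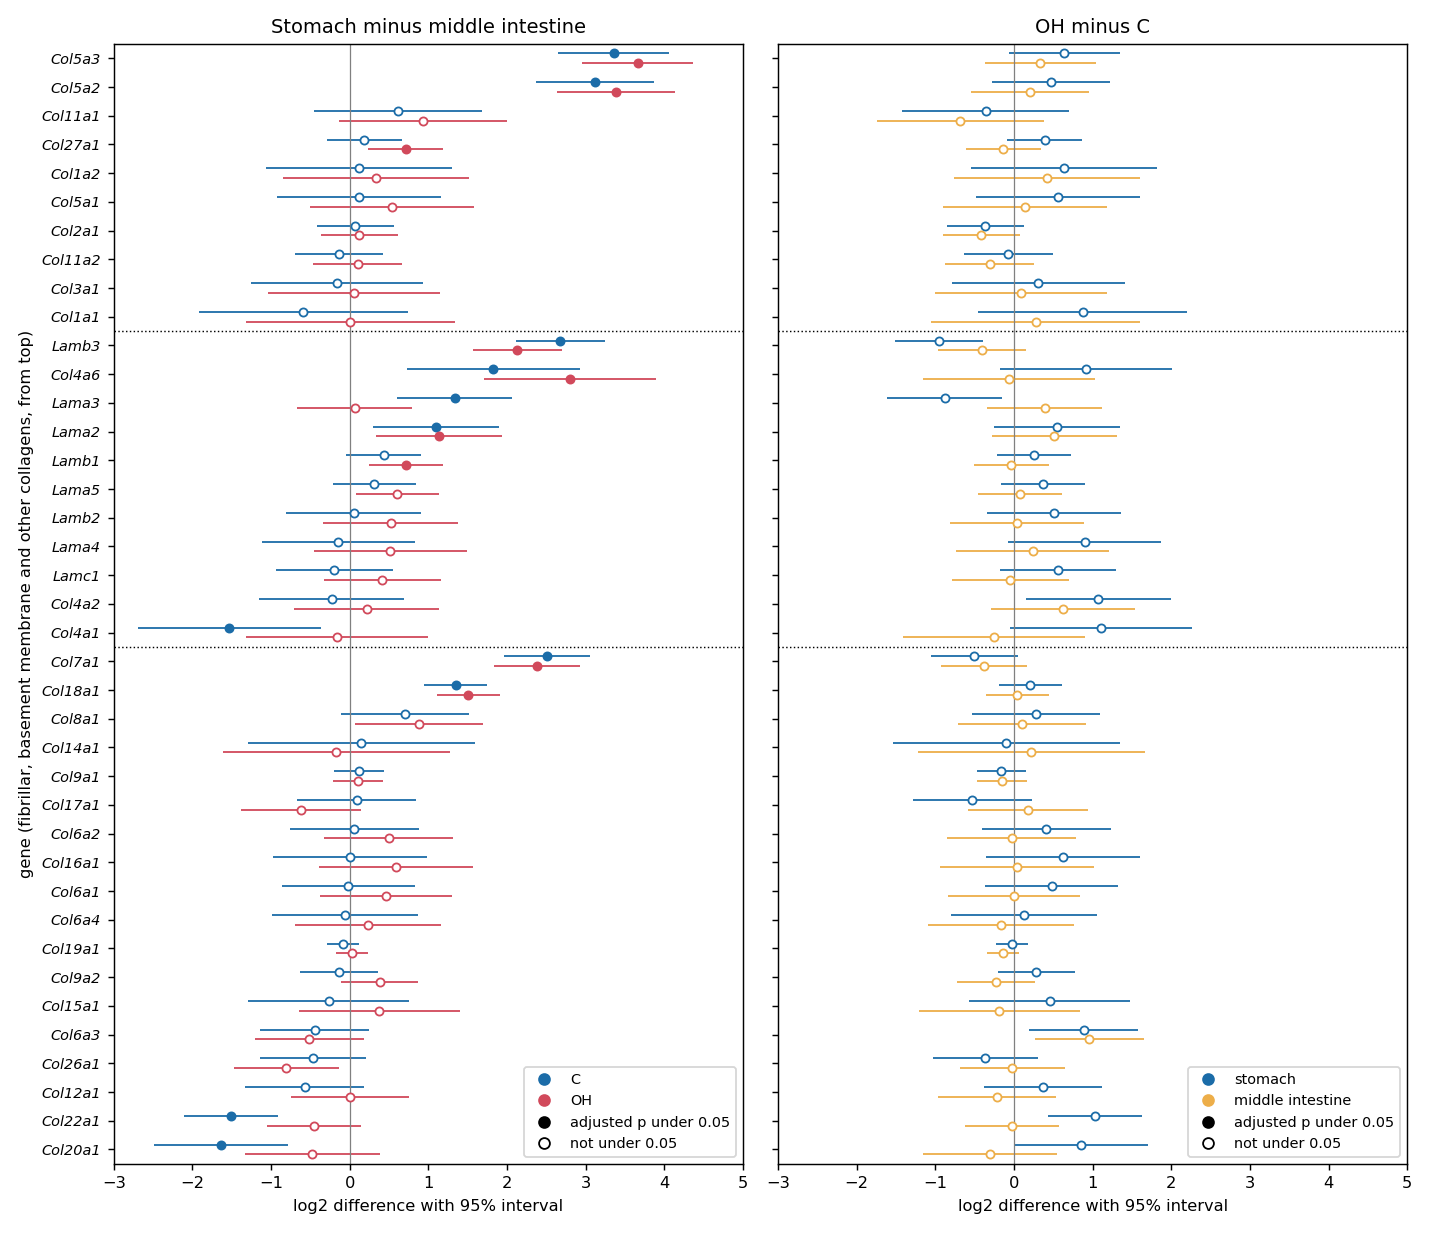
Log2 difference with its 95% interval for 39 of the tested genes, stomach minus middle intestine (left, C and OH rats) and OH minus C (right, stomach and middle intestine); filled points have an adjusted p under 0.05. On the left Col5a3, Col5a2, Lamb3 and Col7a1 stand at 2.13 to 3.66 in both treatments, and on the right no point is filled. Col5a2 is shown on its brightest probe, and its second probe did not show the tissue difference.

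Among the fibrillar collagens Col5a3 and Col5a2 differed most between the tissues. Col5a3, a minor chain of type V collagen, gave 0.06, 1.32, -0.16 and 0.06 on the C stomach arrays and -3.13, -2.97, -3.38 and -2.68 on the C middle intestine arrays. In OH rats the values were 0.29, 1.58, 0.58 and 1.40 in stomach and -2.88, -2.99, -2.52 and -2.41 in intestine. Every stomach array lay above every intestine array, and the stomach was higher by 3.36 among C rats (SE 0.33, 10.3-fold, adjusted p = 1.6e-06) and by 3.66 among OH rats (12.6-fold, adjusted p = 6.9e-07). Col5a2, the chain that partners the major chain of type V and helps set the width of collagen fibrils, gave -0.48, 1.18, -0.42 and 0.05 in C stomach and -3.20, -3.29, -3.13 and -2.50 in C middle intestine. In OH rats it gave -0.12, 0.91, 0.34 and 1.10 in stomach and -3.13, -2.92, -2.91 and -2.37 in intestine, again with no overlap. The difference was 3.11 (SE 0.35, adjusted p = 6.1e-06) among C rats and 3.39 (adjusted p = 2.9e-06) among OH rats, but the second probe of Col5a2, described below, did not show it. The major chain, Col5a1, was not called, at 0.11 (95% interval -0.93 to 1.15) among C and 0.54 (-0.51 to 1.58) among OH rats.

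The main fibre collagens were not called in either treatment, and their intervals were wide. Col1a1, the more abundant chain of type I, gave -1.67, -2.96, -1.36 and -1.25 in C stomach and -1.29, -1.20, -2.00 and -0.36 in C middle intestine, a difference of -0.59 with an interval of -1.92 to 0.73. Among OH rats it gave 0.75, -1.81, -2.58 and -0.09 in stomach and -1.44, -1.08, -1.01 and -0.22 in intestine, a difference of 0.01 (-1.32 to 1.33). The OH stomach arrays alone covered the whole range of the intestine arrays and beyond. Col1a2, the partner chain, differed by 0.12 (-1.06 to 1.30) and 0.33 (-0.85 to 1.52), and Col3a1, the reticular fibre collagen, by -0.16 (-1.26 to 0.93) and 0.06 (-1.04 to 1.15). Col27a1, a short fibrillar collagen best known from cartilage, was higher in OH stomach. It gave 0.03, -0.35, -0.46 and -0.31 there and -1.17, -0.83, -0.97 and -0.96 in OH middle intestine, without overlap, a difference of 0.71 (SE 0.22, adjusted p = 0.021), in comparison to 0.18 (adjusted p = 0.53) among C rats. The call on Col27a1 was lost without OH stomach replicate 1 (adjusted p = 0.061) or OH middle intestine replicate 1 (adjusted p = 0.056). It was also lost with Cy5 alone (0.62, adjusted p = 0.056) and with normexp background correction and loess, where the difference was 0.33 (adjusted p = 0.061). Analysis of variance with Tukey's test asked for a p under 0.05 in both. There Tukey's p was 0.044, but the adjusted p of the analysis of variance did not pass. The cartilage collagens Col2a1, Col11a1 and Col11a2 were not called.

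Of the laminins, Lamb3 differed most. It encodes the beta chain of the laminin that, with the product of Lama3, holds hemidesmosomes of stratified and glandular epithelium to the basement membrane. Lamb3 gave 1.34, 0.27, 1.26 and 1.29 on the C stomach arrays and -2.03, -1.70, -1.60 and -1.19 on the C middle intestine arrays. In OH rats it gave -0.38, 0.56, 0.16 and 0.03 in stomach and -1.81, -2.38, -2.20 and -1.76 in intestine. All stomach arrays lay above all intestine arrays, although C stomach replicate 2 was far below the other arrays of its group. The difference was 2.67 among C rats (SE 0.26, 6.38-fold, adjusted p = 1.6e-06) and 2.13 among OH rats (4.37-fold, adjusted p = 1.7e-05).

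Lama3 did not follow Lamb3 to the same extent. It gave 1.44, -0.03, 1.03 and 1.07 in C stomach and -0.90, -0.69, -0.88 and 0.66 in C middle intestine, where replicate 4 was far above the other arrays. The C tissues overlapped, and the difference of 1.33 (SE 0.34) passed the test (adjusted p = 0.0059). Among OH rats it gave -0.22, 0.21, 0.02 and -0.01 in stomach and -0.01, -0.46, 0.32 and -0.09 in intestine, a difference of 0.06 with an interval of -0.67 to 0.79. The difference between these differences did not pass its test (adjusted p = 0.84). Col17a1, the membrane-spanning collagen of the same hemidesmosomes, differed by 0.09 (-0.67 to 0.85) and -0.62 (-1.38 to 0.14).

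**Figure D4:**
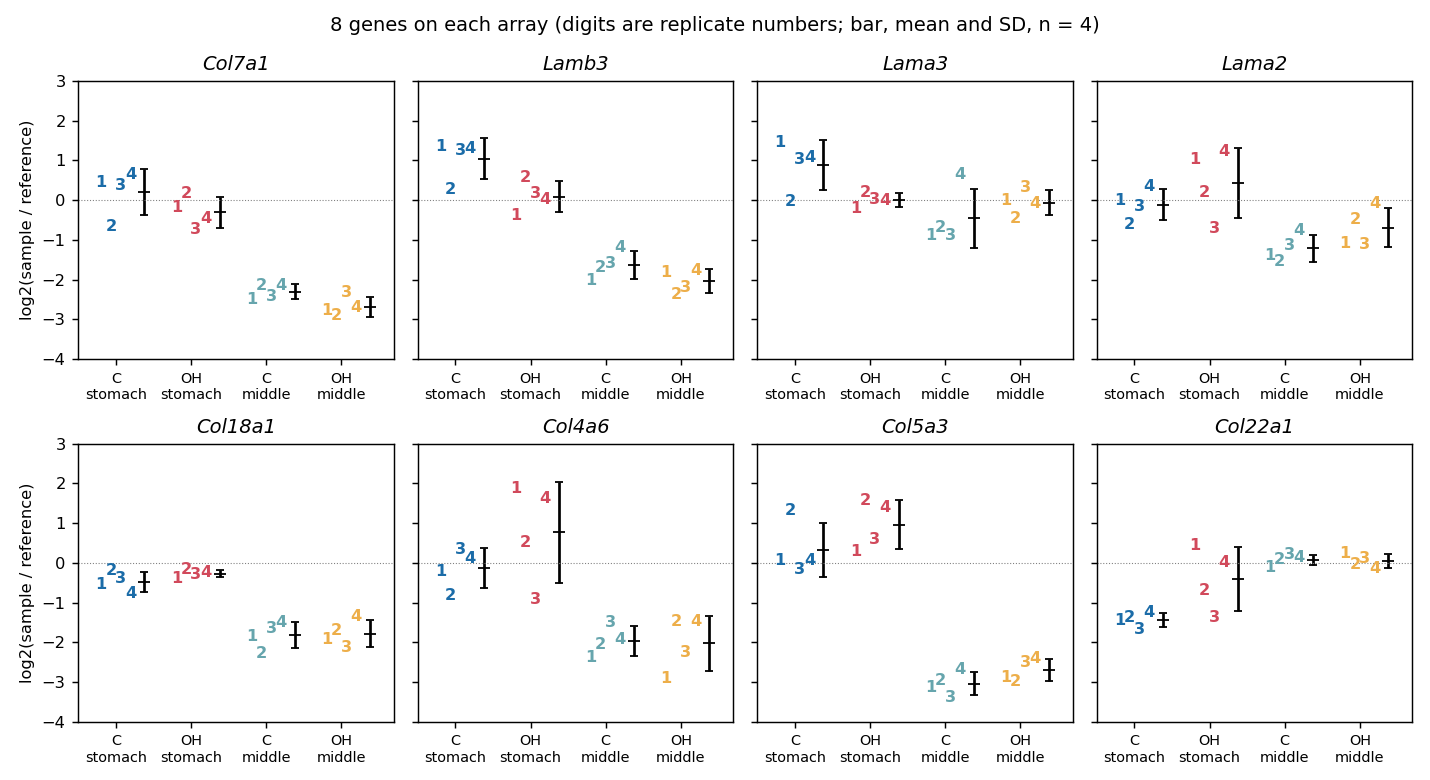
Log2 ratio of sample to pool for 8 genes on each array (digits are replicate numbers) with the mean and SD of each group (n = 4). Col7a1, Lamb3, Col18a1, Col4a6 and Col5a3 are separated by tissue in both treatments, Lama2 and Col22a1 only among C rats, and Lama3 in neither. Replicate 2 lies apart from the other C stomach arrays for Lamb3, Lama3 and Col7a1. Col4a6 is shown on its brightest probe, and its second probe did not show the tissue difference.

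Lama2 and Lamb1, chains of the laminins of muscle and of many other basement membranes, were also higher in stomach, by less. Lama2 gave -0.01, -0.60, -0.17 and 0.34 in C stomach and -1.39, -1.53, -1.15 and -0.76 in C middle intestine, a difference of 1.10 (SE 0.37, adjusted p = 0.027) with no overlap. It gave 1.02, 0.20, -0.71 and 1.24 in OH stomach and -1.09, -0.48, -1.11 and -0.09 in OH middle intestine, a difference of 1.13 (adjusted p = 0.027) with overlapping groups. Lamb1 gave -0.17, -0.69, -1.16 and -0.19 in OH stomach and -1.70, -1.23, -1.31 and -0.82 in OH middle intestine, overlapping, a difference of 0.72 (SE 0.22, adjusted p = 0.019), in comparison to 0.43 (adjusted p = 0.13) among C rats. These calls depended on single arrays and on the processing. Among C rats the call on Lama2 was lost without C stomach replicate 1 or 4 or C middle intestine replicate 1 or 2 (adjusted p from 0.058 to 0.078). Among OH rats it was lost without OH stomach replicate 1 or 4 or OH middle intestine replicate 1 or 3 (adjusted p from 0.073 to 0.090), and that on Lamb1 without OH stomach replicate 1 or 4 or OH middle intestine replicate 1 (adjusted p from 0.060 to 0.065). With OH stomach replicates 1 and 4 both left out, a choice made after seeing the data, the differences were 0.44 for Lama2, 0.34 for Lamb1 and 0.58 for Col27a1, none of them called. In that fit Col22a1 (-1.08, adjusted p = 8.2e-04) and Col20a1 (-1.27, adjusted p = 0.014) were called lower in OH stomach. So were Col4a1 (-1.32, adjusted p = 0.023) and Col6a3 (-1.02, adjusted p = 0.038). Col5a3, Col5a2, Lamb3, Col7a1, Col4a6 and Col18a1 stayed called higher. The share of all probes called in that fit is not given here. Those arrays were often the high ones, so leaving them out lowers many members. Among C rats Lama2 was also not called with normexp and loess (0.67, adjusted p = 0.10), with Cy5 alone (0.93, adjusted p = 0.10) or with Tukey's test. Among OH rats Lama2 was not called with Cy5 alone (adjusted p = 0.051). With only the compared arrays fitted, Lama2 (adjusted p = 0.081) and Lamb1 (adjusted p = 0.072) were not called. Lama2 did not pass Tukey's test either, whereas Lamb1 had a Tukey p of 0.040 but did not pass the analysis of variance before it.

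The other laminins were not called. Lama4, the chain of vessel and muscle basement membranes, differed by -0.15 (-1.12 to 0.83) among C and 0.51 (-0.46 to 1.49) among OH rats. Lama5, the widespread alpha chain of epithelial basement membranes, differed by 0.31 (adjusted p = 0.32) and 0.61 (adjusted p = 0.068). Lamb2 differed by 0.05 and 0.52, and Lamc1, the gamma chain of most laminins, by -0.20 and 0.41. Lama1, an alpha chain of early and some epithelial basement membranes, was too dim to test, with values of -2.49, -2.33, -2.56 and -2.27 in C stomach.

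Of the type IV collagens, Col4a6, a chain of smooth muscle and some epithelial basement membranes, was higher in stomach on its brightest probe. Its second probe, described below, did not show this. The brightest probe gave -0.22, -0.81, 0.34 and 0.12 in C stomach and -2.38, -2.07, -1.49 and -1.92 in C middle intestine. In OH rats it gave 1.87, 0.52, -0.92 and 1.62 in stomach and -2.91, -1.48, -2.25 and -1.47 in intestine. The groups did not overlap, with differences of 1.83 (SE 0.51, adjusted p = 0.0099) and 2.80 (adjusted p = 5.8e-04), and OH stomach replicates 1 and 4 were the highest of all. Without those arrays the OH difference was 1.83 (adjusted p = 0.010).

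Col4a1, a chain of the network common to all basement membranes, was lower in C stomach than in C middle intestine on its brightest probe. Its second probe, described below, did not show this. The brightest probe gave -2.24, -2.61, -1.79 and -1.82 in C stomach and -0.48, -0.33, -1.46 and -0.08 in C middle intestine, without overlap, a difference of -1.53 (SE 0.54, adjusted p = 0.033). The OH rats gave 0.59, -1.63, -2.71 and -0.27 in stomach and -1.20, -1.10, -0.70 and -0.36 in intestine, a difference of -0.16 (-1.32 to 1.00). The OH stomach arrays spread from the lowest to the highest value of all 16. The call among C rats was lost without C stomach replicate 1 or 2 or C middle intestine replicate 1, 2 or 4 (adjusted p from 0.066 to 0.081) and with Tukey's test. Col4a2, its head-to-head neighbour shown above, gave -1.83, -1.99, -1.31 and -1.44 in C stomach and -1.34, -1.33, -1.92 and -1.05 in C middle intestine. Its differences of -0.23 (-1.15 to 0.69) and 0.22 (-0.70 to 1.14) passed no threshold. Of 10 smooth muscle markers 4 were lower in C stomach and none higher, where 22.3% of all probes were lower and 22.7% higher. A link between these markers and Col4a1 was not tested.

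Col7a1 and Col18a1 were the clearest of the other collagens. Col7a1, the only chain of the anchoring fibrils that fasten the basement membrane to the fibres beneath, gave 0.44, -0.65, 0.38 and 0.64 in C stomach and -2.50, -2.14, -2.43 and -2.14 in C middle intestine. In OH rats it gave -0.18, 0.17, -0.74 and -0.46 in stomach and -2.77, -2.91, -2.32 and -2.71 in intestine. The tissues were far apart in both treatments, by 2.50 (SE 0.26, 5.68-fold, adjusted p = 2.4e-06) and 2.38 (5.21-fold, adjusted p = 4.5e-06). Col18a1, the heparan sulphate-bearing collagen of basement membranes, gave -0.54, -0.19, -0.40 and -0.78 in C stomach and -1.86, -2.27, -1.65 and -1.51 in C middle intestine. In OH rats it gave -0.38, -0.17, -0.30 and -0.23 in stomach and -1.94, -1.70, -2.13 and -1.35 in intestine. Here the replicates were close, and the stomach was higher by 1.35 (SE 0.19, 2.54-fold, adjusted p = 4.8e-05) and 1.51 (2.85-fold, adjusted p = 1.7e-05). Its relative Col15a1 differed by -0.27 (-1.29 to 0.76) and 0.38 (-0.65 to 1.40). In each treatment 8 of the 9 tested squamous forestomach markers were higher in stomach, as were 11 of 12 markers of the glandular lining. Of all probes 22.7% were higher among C rats and 19.2% among OH rats. A link between these markers and Lamb3 or Col7a1 was not tested.

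The fibril-associated collagens Col22a1 and Col20a1 were lower in C stomach. Col22a1, known from tissue junctions such as that of muscle and tendon, gave -1.46, -1.39, -1.67 and -1.24 in C stomach and -0.11, 0.09, 0.20 and 0.12 in C middle intestine, a difference of -1.52 (SE 0.28, adjusted p = 5.4e-04). The OH rats gave 0.43, -0.70, -1.37 and 0.02 in stomach and 0.25, -0.03, 0.12 and -0.14 in intestine, a difference of -0.45 (adjusted p = 0.22), with the OH stomach arrays in the order of the smooth muscle markers. Col20a1 gave -0.50, -0.31, -0.20 and 0.43 in C stomach and 1.52, 1.48, 0.94 and 2.03 in C middle intestine, a difference of -1.64 (SE 0.40, adjusted p = 0.0042). The OH rats gave 1.46, 0.30, -0.47 and 1.55 in stomach and 0.63, 1.08, 1.42 and 1.62 in intestine, a difference of -0.48 (adjusted p = 0.37). For both genes the C tissues did not overlap and the OH tissues did.

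The type VI collagens, which build the beaded filaments around cells, were not called between the tissues. Col6a1 differed by -0.02 (-0.86 to 0.83) among C and 0.46 (-0.38 to 1.31) among OH rats, Col6a2 by 0.06 (-0.76 to 0.88) and 0.50 (-0.32 to 1.31), and Col6a3 by -0.44 (-1.14 to 0.25) and -0.52 (-1.21 to 0.18). Closest to the threshold among OH rats were Col26a1, at -0.81 with no overlap (adjusted p = 0.055), Lama5, and Col8a1, a short-chain network collagen of vessels, at 0.88 (adjusted p = 0.081).

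Further probes, 13 in number, were tested for 12 of the 40 genes, and for some the probes of a gene disagreed. The second Col5a2 probe gave -2.02, -2.88, -1.60 and -1.46 in C stomach and -1.82, -1.99, -2.22 and -1.06 in C middle intestine, a difference of -0.21 (95% interval -1.31 to 0.88), in comparison to 3.11 on the brightest probe. Among OH rats it differed by 0.26 (-0.84 to 1.36). On this probe C stomach replicate 2 was the lowest array, whereas on the brightest probe it was the highest of its group. For Col4a6 the probe in the collagen triplets gave -0.53, -0.51, -0.02 and 0.07 in C stomach and -0.08, 0.15, -0.05 and -0.05 in C middle intestine, a difference of -0.24 (-0.75 to 0.27) in comparison to 1.83, and -0.11 (-0.62 to 0.40) in comparison to 2.80 among OH rats. The brightest probe lies 4822 bases further downstream. For Col4a1 the probe in the triplets gave -1.52, -2.01, -1.13 and -1.04 in C stomach and -1.29, -1.54, -1.91 and -0.94 in C middle intestine, a difference of -0.01 (-0.86 to 0.85) in comparison to -1.53 on the probe 11581 bases downstream. The tissue differences of Col5a2, Col4a6 and Col4a1 therefore held for 1 probe of each gene and not for the other. With the mean over the probes of a gene, Col4a1 (-0.77, adjusted p = 0.19) and Col4a6 (0.79, adjusted p = 0.083) were not called among C rats. Conversely, the second probe of Col17a1 was higher in C stomach by 0.94 (adjusted p = 0.024), with values of -0.79, -1.48, -0.55 and -0.55 in C stomach and -2.09, -1.76, -1.67 and -1.61 in C middle intestine, where the brightest gave 0.09. Among OH rats that probe lay on the other side of 0, at -0.61 (-1.28 to 0.05, adjusted p = 0.14). The second probe of Col11a1 was higher in OH stomach by 1.40 (adjusted p = 0.034), the brightest by 0.93 (adjusted p = 0.16). That second probe was well above background on only 10 arrays, and the OH tissues overlapped on it. Its difference may therefore rest in part on values near background, and nothing is concluded from it. Col5a3, Lamb3, Col7a1, Col18a1, Col20a1, Col22a1, Lama2 and Lama3 had 1 probe each, so their differences could not be checked on a second probe.

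**Figure D5:**
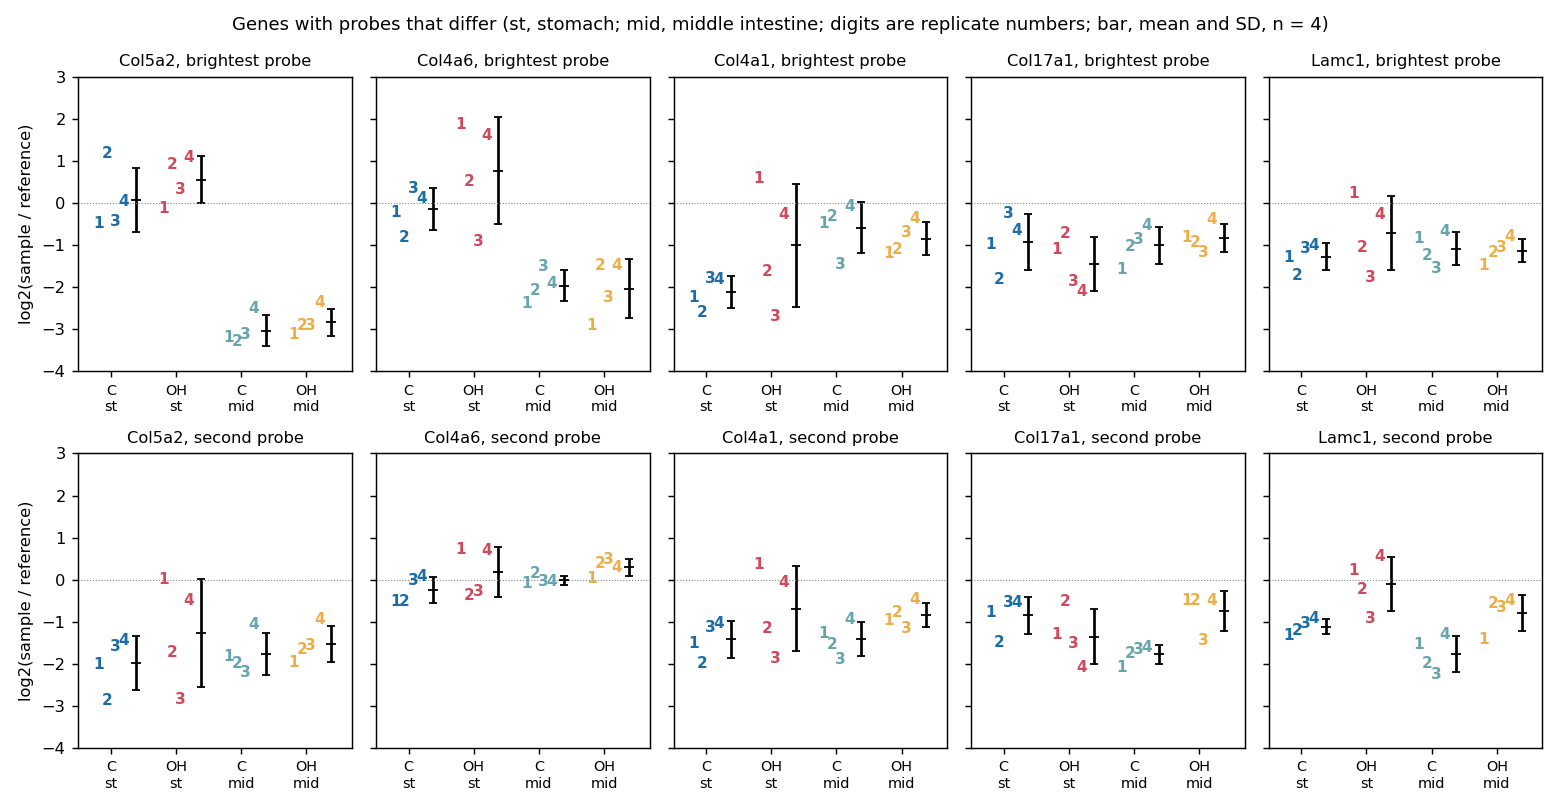
Log2 ratio of sample to pool on each array (digits are replicate numbers, with the mean and SD of each group, n = 4) for the brightest probe (top) and a second probe (bottom) of 5 genes. The brightest probes of Col5a2 and Col4a6 separate stomach from middle intestine, whereas their second probes overlap between the tissues among C rats.

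Genes that make, process, bind and break down collagen were compared between the tissues in the same fit, from lists. Their counts stand beside 44.9% of all probes called among C rats and 38.2% among OH rats. Of 18 tested genes of collagen synthesis and secretion 4 were higher and 1 lower in C stomach, and 6 and 2 in OH stomach; Sec23a, a coat protein of the vesicles that carry procollagen, was lower (-1.51 among C rats) and Mia3, which loads procollagen into them, higher (0.91). None of the 8 tested genes of processing and cross-linking was called in either treatment. Of 13 receptors 3 were higher and 2 lower in C stomach. Itga2, the alpha chain of a collagen-binding integrin, was lower, with a difference of -1.91 (adjusted p = 3.6e-05) and -2.66 among OH rats, and Bcam, a receptor for laminins with the Lama5 chain, was higher by 1.53 and 0.99. Among 9 further basement membrane proteins Nid2, a linker of laminin and type IV collagen, was lower, with a difference of -1.07 in C stomach and Frem2 higher by 0.39.

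Among 17 other matrix proteins 4 were higher and 2 lower in C stomach. Dcn, the proteoglycan that binds type I fibrils, was higher by 3.42 (adjusted p = 7.3e-08) among C and 3.34 among OH rats, and Tnc, a glycoprotein of growing and remodelled matrix, lower, with a difference of -2.80 and -1.95. Of 12 tested genes of collagen degradation 1 was higher and 2 lower in C stomach. Mmp7, the matrix-degrading protease of Paneth cells and glandular epithelium, was lower, with a difference of -5.60 (adjusted p = 7.4e-07) and -5.39 among OH rats. Of 9 TGF-beta ligands and targets, the main inducers of collagen genes and their products, 1 was lower in C stomach, the receptor Tgfbr1 by -0.40, and none was called among OH rats.

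The effect of obestatin was read as OH against C within each tissue. In stomach no collagen or laminin gene was called, as no probe at all was (0 of 21174, 0%). At an unadjusted p under 0.05 there were 5 of 40, in comparison to 10.6% of all probes, and analysis of variance with Tukey's test called 2, Col22a1 and Lamb3 (3.35% of all probes). The median difference of the members was 0.38 (all probes 0.01), with 28 above 0 and 12 below. The size of this shift varied with the arrays included. Leaving out 1 array at a time gave a median of 0.13 (without OH stomach replicate 1), 0.24 (without OH stomach replicate 4), 0.22 (without C stomach replicate 2) and 0.59 (without OH stomach replicate 3). Without both OH stomach replicates 1 and 4 the median was -0.26, with 9 of 40 above 0. Those arrays were picked after seeing that they were often high. Leaving them out lowers many members by construction, so it cannot show where the shift comes from. Over all stomach arrays the median difference of the smooth muscle markers was 1.42, that of the fibroblast markers 0.52 and that of the striated muscle markers -2.24, none of them with a call.

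The 5 genes with the smallest p in stomach did not pass the adjusted threshold. Col22a1 differed between OH and C stomach by 1.03 (interval 0.43 to 1.63, adjusted p = 0.27), on the arrays given above, of which replicate 3 lay within the range of C stomach. Lamb3 had a difference of -0.95 (-1.51 to -0.39, adjusted p = 0.28), with the Cy5 signal changed by -0.38 and that of the pool by 0.57. Without C stomach replicate 2 the difference in Lamb3 was -1.21 and passed (adjusted p = 0.017). With Aquantile and scale normalisation Lamb3 (adjusted p = 0.034), Col22a1 (adjusted p = 0.026) and Col4a2 (adjusted p = 0.048) passed, and with array weights Lamb3 (adjusted p = 0.014), Col22a1 (adjusted p = 0.021) and Lama3 (adjusted p = 0.027) were among 5 members that did. The share of all probes called in these settings is not given here. Col6a3, a chain of type VI collagen, was the only one of the 5 genes with the smallest p whose groups did not overlap. It gave -0.71, -0.61, -0.53 and -0.54 in C stomach and 0.86, -0.14, -0.29 and 0.72 in OH stomach, a difference of 0.89 (0.20 to 1.58, adjusted p = 0.38). Lama3 differed by -0.88 (adjusted p = 0.41) and Col4a2 by 1.07 (adjusted p = 0.42), the latter with 0.53, -1.10, -1.98 and 0.27 on the OH stomach arrays, high on replicates 1 and 4. The squamous markers had a median difference of -0.56 on these arrays, without a call.

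The precision limits what can be said of the rest. In stomach the 95% interval held 0 for 35 of the 40 genes but lay within 1 of it on both sides for only 9, so for most of them a doubling was not shown to be absent. The main fibre collagens Col1a1 (0.87, -0.45 to 2.20), Col1a2 (0.64, -0.54 to 1.82) and Col3a1 (0.31, -0.79 to 1.41) were among those with the widest intervals. Narrower ones were those of Col18a1 (0.21, -0.19 to 0.61), Lamb1 (0.25, -0.22 to 0.73) and Col9a1 (-0.16, -0.47 to 0.16).

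In middle intestine no member was called either, in comparison to 0.368% of all probes (78 probes). At an unadjusted p under 0.05 there was 1 of 40, Col6a3, in comparison to 10.5% of all probes, and Tukey's test called none (4.42% of all probes). The members had a median difference of -0.03, with 19 above 0 and 21 below, and the interval held 0 for 39 and lay within 1 of it for 21. Here Col6a3 gave -0.38, 0.26, -0.47 and -0.03 for C and 0.56, 0.12, 1.79 and 0.75 for OH, of which replicate 3 was the highest and replicate 2 within the C range. The difference was 0.96 (0.27 to 1.65, adjusted p = 0.26). Between the C and OH arrays the signal of Col6a3 changed by -0.41 in the sample channel and by -1.37 in the pool. The next smallest p values were those of Col2a1 (-0.41), Lamb3 (-0.41), Col7a1 (-0.38) and Col19a1 (-0.14), with adjusted p from 0.59 to 0.69.

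The obestatin difference was then compared between the tissues and averaged over them. The tissues differed for no member in the limma interaction (0% of all probes), and at an unadjusted p under 0.05 for 2 of 40, Col22a1 (1.06, adjusted p = 0.84) and Lama3 (-1.27, adjusted p = 0.84), in comparison to 5.85% of all probes. Averaged over both tissues no member was called, in comparison to 0.685% of all probes, and 6 of 40 had an unadjusted p under 0.05, in comparison to 14.5%. The smallest adjusted p belonged to Col6a3 at 0.92 (0.44 to 1.41, adjusted p = 0.075), of which 0.06 lay in the sample channel and -0.86 in the pool. Lamb3 was at -0.68 (adjusted p = 0.1), with -0.21 in the sample channel and 0.47 in the pool, and Col4a2 at 0.85 (adjusted p = 0.2), with 0.82 and -0.03. Among the further probes, the second probe of Lamc1 passed at 1.00 (adjusted p = 0.048), where the brightest Lamc1 probe gave 0.26 (adjusted p = 0.68). In stomach this probe gave -1.32, -1.21, -1.04 and -0.93 for C and 0.21, -0.24, -0.92 and 0.56 for OH, and in intestine -1.54, -2.00, -2.25 and -1.30 for C and -1.43, -0.58, -0.66 and -0.49 for OH. In stomach the difference of this probe was 0.85 in the sample channel and -0.18 in the pool, and in intestine -0.09 and -1.07, which averages to 0.38 in the sample channel and -0.62 in the pool. The highest C stomach array almost met the lowest OH array, and in intestine the groups overlapped. Genes of the 7 pathway lists were not called between OH and C in either tissue.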

How the data were processed

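Per the labels and the file headers, the authors hybridised total RNA (Cy5) against a pool of all animals (Cy3) on 16 Agilent rat arrays and extracted them with Agilent Feature Extraction (10.7.3.1 in the submitters' notes, 10.10.1.1 in the file headers). The deposited intensities are background-subtracted and dye-normalised processed signals, and the deposited value table holds log10 ratios, which differed from those of the scanner files by at most 0.005.

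Control spots were left out and spots of a probe averaged. Log2(Cy5/Cy3) was taken without further scaling. Probes well above background on all 4 arrays of at least 1 group, with at least 3 values a group, were kept. All arrays entered 1 limma 3.58.1 fit (R 4.3.3) of the group means, with Benjamini-Hochberg adjustment over 21174 probes. Scripts were tested on simulated data. Alternatives covered background, scaling, Cy5 alone, filters, analysis of variance with Tukey's test, probes, blocks and left-out arrays. The array number sets the precision. Replicates within a group are separate rats, which may share a litter. Whether equally numbered stomach and intestine arrays are of 1 rat is not stated, so the fit was unpaired.

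The members and lists were chosen with earlier results of these data known. Named were, per class and comparison, up to 6 called genes with the largest differences (10 for basement membrane), the main chains throughout, the 5 smallest p where under 3 were called, and up to 3 called genes a pathway list. Brightest probes of 29 members matched RefSeq by accession. Positions are rn4, as in the files; exons and UTRs were not assigned. The reference sequences are RefSeq GRCr8. A gene and a probe sequence are not reported here, although counts over the members include them.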

Additional observations from a re-analysis of the deposited data

Results flagged for a closer look

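In 8 of 156 groups of 4 arrays looked at, 1 array lay far from the other 3 (Dixon's test at 95%), where chance gives about 8. C stomach replicate 2 accounted for 3 of them: it was the lowest for Lamb3 at 0.27 (next 1.26) and for Col12a1 at -2.51 (next -1.96), and the highest for Col5a3 at 1.32 (next 0.06). C stomach replicate 1 was the lowest for Lama5 at -0.97 (next -0.82) and for Col9a1 at 0.49 (next 0.65). OH stomach replicate 1 was the highest for Col11a2 at 1.28 (next 0.61) and replicate 4 for Col2a1 at -0.00052 (next -0.33). C middle intestine replicate 4 was the highest for Lama3 at 0.66 (next -0.69).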

How the results depend on the processing

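Between stomach and middle intestine the number of members called stayed between 9 and 13 among C rats over all alternatives (9 to 11 leaving out 1 array) and between 6 and 13 among OH rats (6 to 13 leaving out 1 array). Alternatives with another filter on dim probes tested another number of members than the 40 of the main fit. The share of all probes called is given here only for the main fit, 44.9% among C and 38.2% among OH rats. With the second brightest probe, a choice made after seeing the data, Col4a6 reversed to -0.24 among C and -0.11 among OH rats, and Col5a2 to -0.21 among C rats. The cause was not tested.

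For OH against C in stomach 0 members were called, in comparison to 3 with Aquantile and scale normalisation, 5 with array weights, 2 with analysis of variance and Tukey's test, 5 at an unadjusted p under 0.05, 0 to 1 leaving out 1 array (1, Lamb3, without C stomach replicate 2) and 1 without that array and OH middle intestine replicate 4. In middle intestine it was 2 with Cy5 alone, 1 without the filter on dim probes, 1 unadjusted and 0 to 0 leaving out 1 array. For the difference between the tissues it was 2 unadjusted. For the mean over both tissues it was 3 with Aquantile, 3 with Cy5 alone, 3 without the filter, 3 with array weights, 6 unadjusted, 1 with the second brightest probe, 0 to 3 leaving out 1 array (2 without C stomach replicate 2, 3 without OH stomach replicate 3) and 1 without C stomach replicate 2 and OH middle intestine replicate 4. Of all probes, Tukey's test called 3.35% in stomach. Unadjusted p values under 0.05 made up 10.6% in stomach, 10.5% in middle intestine, 5.85% for the difference and 14.5% for the mean. For the other settings the share of all probes is not given here, so their counts cannot be read as particular to the members.

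Whether equal replicate numbers of stomach and intestine mark 1 rat is not known, and no pairing was assumed. Deviations of same-numbered stomach and intestine arrays correlated at 0.06 to 0.25 among C rats (3 of 4 pairs over 0.1) and at -0.12 to 0.32 among OH rats (2 of 4). The replicate block gave 11 calls among C rats, 11 among OH rats and 0 in each comparison of OH with C. For the block, too, the share of all probes is not given here. Across all settings the results of single genes were the same in 1372 cases, gained a call in 37, lost it in 45 and reversed in 3. Medians of all probes moved by less than 0.1 with scaling. The spread of the arrays limits what can be seen in treatment comparisons. In each tissue the median interval of a member extended 0.78 on each side, in comparison to 0.42 for all probes. The fit shared 1 spread per probe over all groups, so the wide OH stomach arrays also enter the intervals of the intestine.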
